A study of Homo sapiens with 6 samples.

Results

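The 7 APOBEC3 genes, a family of cytidine deaminases, were examined in KYSE150 cells, an established human line of esophageal squamous cell carcinoma (ESCC). The members (APOBEC3A, APOBEC3B, APOBEC3C, APOBEC3D, APOBEC3F, APOBEC3G and APOBEC3H) were taken by name, and all 7 were found among the 67140 Ensembl gene identifiers of the count table. RNA-seq libraries from 3 shCtrl samples, which carried a control hairpin, were compared with those from 3 shAC007128.1 samples, which carried 1 hairpin directed at the long non-coding RNA AC007128.1. All cells grew in RPMI medium with fetal bovine serum, and the stable lines were made by lentivirus and puromycin. The labels do not say whether the samples of a group were separate cultures, so the p-values measure the spread between these samples, which may be technical. With 1 hairpin and 1 control, an effect of AC007128.1 and a difference between the lines cannot be told apart.

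APOBEC3 proteins convert cytosine to uracil in single-stranded DNA. They restrict retroviruses and mobile elements, and APOBEC3A and APOBEC3B are the members best known as sources of clustered C-to-T and C-to-G mutations in squamous tumors. APOBEC3A, APOBEC3C and APOBEC3H have a single zinc-coordinating deaminase domain, while APOBEC3B, APOBEC3D, APOBEC3F and APOBEC3G carry a tandem pair of them. Transcription of family members is known to respond to interferon, to PKC and NF-kB signaling and, for APOBEC3B, to the cell cycle factors of the DREAM and B-MYB complexes.

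The genes lie side by side on the plus strand of chromosome 22 in hg38, in the order APOBEC3A, APOBEC3B, APOBEC3C, APOBEC3D, APOBEC3F, APOBEC3G and APOBEC3H. GENCODE v44 places the cluster from 38952741 to 39104067, a span of 151 kb. The members arose by duplication and still share stretches of sequence, so that short reads can fall on more than 1 of them. Of the different 150-base windows of APOBEC3B transcripts, 5.72% occurred letter for letter in another member, and 3.43% occurred in APOBEC3A. For 75-base windows these were 407 and 225 of 2035. No 75-base window of APOBEC3H occurred in another member. The read length of these libraries is not given in the sources used here.

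A promoter sequence from RefSeq (GRCh38.p14) was matched for 1 member, APOBEC3H, and not for APOBEC3A, APOBEC3B, APOBEC3C, APOBEC3D, APOBEC3F or APOBEC3G. It is shown because the factors described further on act at such regions. The window covers chr22:39096994-39097293 on the plus strand, around the annotated start of the gene, and capitals mark the match described next.

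APOBEC3H promoter: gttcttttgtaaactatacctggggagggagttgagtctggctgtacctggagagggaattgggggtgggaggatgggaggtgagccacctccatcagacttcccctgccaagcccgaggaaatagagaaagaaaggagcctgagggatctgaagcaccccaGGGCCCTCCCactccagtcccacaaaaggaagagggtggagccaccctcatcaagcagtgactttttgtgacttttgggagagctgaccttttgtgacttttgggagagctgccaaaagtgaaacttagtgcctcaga

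Both strands of this window were searched for 5 short strings. The NF-kB core, spelled GGGANNNNCC, matched once, on the minus strand, starting 88 bases before the start RefSeq gives this gene, which lies slightly downstream of the GENCODE start. The same string is present in 25.1% of the 27305 promoters of this length. The interferon response core GAAANNGAAA, the cell cycle homology region TTTGAA, the E2F core TTTCCCGC and the AP-1 core TGANTCA had no match in this window, and were present in 3.65%, 15.4%, 1.66% and 7.76% of the promoters. A match of letters is a description and not a binding site.

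Libraries held 55764405 to 78610457 counts, and the floor of detection was set at 3 counts, which is 0.0373 to 0.0546 CPM (library-scaled counts, with TMM factors). This floor covers counting error only. It takes 1 count as 1 fragment, which was not tested, and low values pile up at 4 counts. AC007128.1 itself had 33 to 69 counts in shCtrl samples and 15 to 37 in shAC007128.1 samples. The groups overlapped (log2 fold change -0.77 ± 0.51, standard error, with an edgeR adjusted p = 0.271), so a reduction of the targeted RNA was not detected at this depth. The paper reports, from a separate qPCR measurement, that its hairpin lowered AC007128.1 RNA in ESCC cells. The labelled cell type was checked against 10 squamous epithelial markers, all of which were tested. Their summed level was 2016 to 2054 CPM in shCtrl and 3145 to 3652 CPM in shAC007128.1 samples. By the rule given below, 4 were called higher (KRT14, KRT6A, PERP and SOX2) and 1 lower (DSG3). Of all genes tested, 5.57% were called higher and 10.1% lower. KRT5, CDH1 and TP63 were abundant in shCtrl cells at 585, 535 and 126 CPM, while SOX2 was at 0.434 CPM. The part of this shift in the APOBEC3 results was not tested. Leukocytes express APOBEC3 genes strongly. The 12 leukocyte markers summed to 4.46 to 5.39 CPM in shCtrl and 3.99 to 5.12 CPM in shAC007128.1 samples, most of it from CSF1R, and CD2, MS4A1 and HLA-DRA had 0 counts in all 6 samples. The 10 fibroblast and endothelial markers summed to 17.4 to 19.2 CPM and 21.2 to 25.9 CPM, mostly from COL1A1. Of these, LUM was called higher, from 1.07 to 4.71 CPM (log2 fold change 2.14, edgeR adjusted p = 0.00193). PDGFRB was called lower, from 0.470 to 0.154 CPM (log2 fold change -1.60, edgeR adjusted p = 0.0474).

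The first question was which members are expressed in these cells. Levels of different genes were compared per kilobase of annotated exon. In shCtrl cells the order was APOBEC3B at 24.6 ± 0.749 CPM per kb (SD, n = 3), APOBEC3C at 20.1 ± 0.925, APOBEC3F at 3.04 ± 0.318 and APOBEC3A at 0.296 ± 0.160. APOBEC3D (0.147 ± 0.0280), APOBEC3H (0.0641 ± 0.0162) and APOBEC3G (0.00619 ± 0.00652) followed. APOBEC3A (0.117 to 0.425) and APOBEC3D (0.117 to 0.172) overlapped, so their order was not resolved. APOBEC3B and APOBEC3C did not overlap, with APOBEC3C at 0.787, 0.842 and 0.825 of the APOBEC3B level in replicates 1, 2 and 3. This order rests on the annotated exon lengths, 1896 bases for APOBEC3B and 2644 for APOBEC3C. Before division by length APOBEC3C was the higher, at 51.8, 56.1 and 51.8 CPM against 47.2, 47.8 and 45.1 CPM. APOBEC3B and APOBEC3C together thus made up nearly the whole family signal: APOBEC3B held 50.2 to 51.8% and APOBEC3C 40.8 to 42.3% of the summed level.

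In shAC007128.1 cells APOBEC3B stood at 40.7 ± 7.54 CPM per kb (SD, n = 3), APOBEC3C at 30.8 ± 0.863, APOBEC3F at 2.37 ± 0.220 and APOBEC3A at 0.796 ± 0.00934. APOBEC3H (0.0728 to 0.220) and APOBEC3D (0.0544 to 0.197) overlapped here, and APOBEC3G stayed the lowest at 0.00640 to 0.0165. APOBEC3C was at 0.629, 0.786 and 0.906 of the APOBEC3B level. The summed level of the family per kb was 46.7 to 50.1 in shCtrl and 69.6 to 83.7 in shAC007128.1 samples. The highest of these, in shAC007128.1 replicate 1, is the sample with the highest APOBEC3B.

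**Figure D1:**
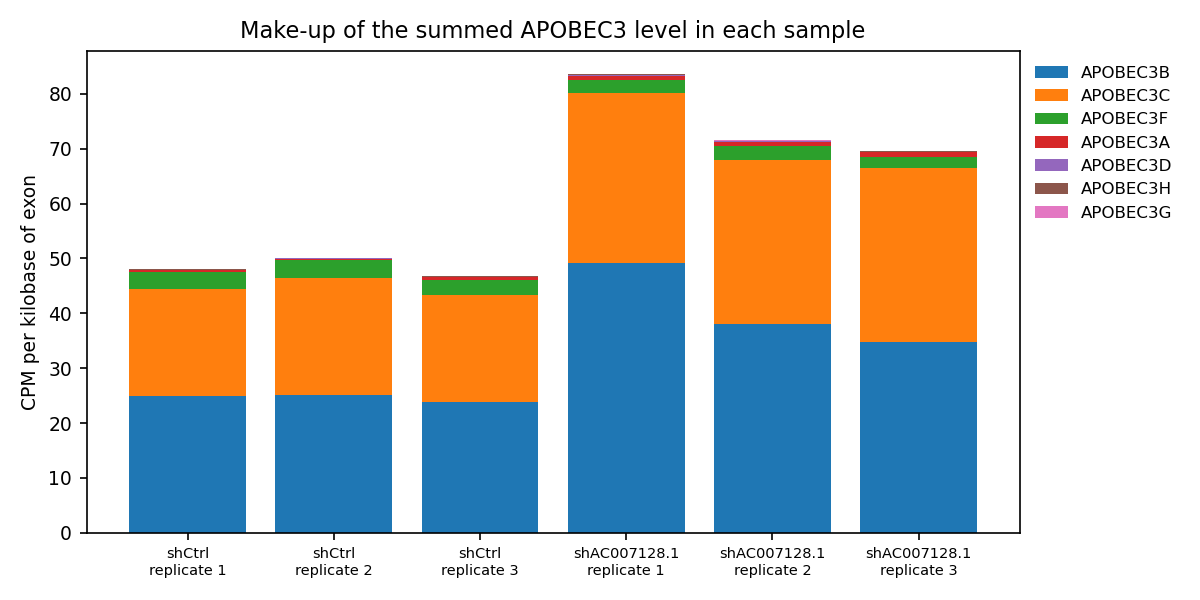
Summed APOBEC3 level in each of the 6 samples, in CPM per kilobase of exon, with 1 colored segment for each member. APOBEC3B and APOBEC3C fill most of every bar, and the 3 shAC007128.1 bars (69.6 to 83.7) stand above the 3 shCtrl bars (46.7 to 50.1).

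The second question was which members differed between shAC007128.1 and shCtrl cells. Of the 7 members, 5 passed edgeR's filter on low counts and entered a single quasi-likelihood fit of edgeR over 19254 genes. Calls needed both an adjusted p (Benjamini-Hochberg) no greater than 0.05 and a change, up or down, of 1 or more on the log2 scale. By this rule APOBEC3A was called higher, and 5.57% of all genes tested were called higher and 10.1% lower. By adjusted p alone, APOBEC3A, APOBEC3B and APOBEC3C were higher and none of the 5 lower, where 21.0% of all genes tested were higher and 19.8% lower. The groups did not overlap for APOBEC3A, APOBEC3B, APOBEC3C and APOBEC3F, which was also so for 55.2% of all genes tested.

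**Figure D2:**
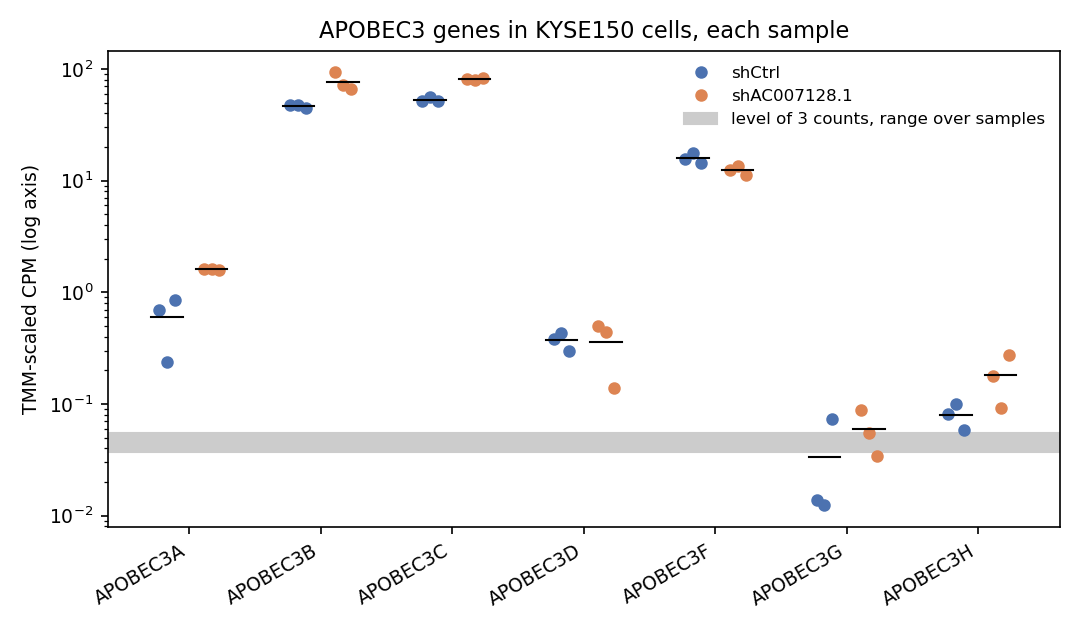
TMM-scaled CPM of each APOBEC3 gene on a log axis, with 1 point for each of 3 shCtrl and 3 shAC007128.1 samples, a bar at each group mean and a gray band at the level of 3 counts. The shAC007128.1 points lie above all shCtrl points for APOBEC3A, APOBEC3B and APOBEC3C and below them for APOBEC3F, while APOBEC3G lies around the gray band.

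APOBEC3B, a nuclear deaminase (ENSG00000179750, chromosome 22 from 38982347 to 38992804), rose 1.65-fold. It had 3453, 3841 and 3057 counts in shCtrl replicates 1, 2 and 3, or 47.2, 47.8 and 45.1 CPM. It had 5243, 3956 and 3841 counts in shAC007128.1 replicates 1, 2 and 3, or 93.3, 72.02 and 66.1 CPM. Every shAC007128.1 sample was above every shCtrl sample, and replicate 1 stood highest. The log2 fold change, 0.72 ± 0.13 (standard error), had an edgeR adjusted p = 0.00443. It exceeded that of 85.4% of genes tested but was short of the fold limit. Over all alternatives it ranged from 0.56 to 0.82, with adjusted p from 1e-05 to 0.0230. At its 3' end, 244 of its 1896 exonic bases are shared with APOBEC3B-AS1 on the opposite strand, a lncRNA with 0 to 3 counts per sample. The use of strand in counting is not given in the sources used here.

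APOBEC3C (ENSG00000244509, chromosome 22 from 39014257 to 39020352), a widely expressed member with weak deaminase activity, had the smallest p of the family. Its level was 51.8, 56.1 and 51.8 CPM in shCtrl replicates 1, 2 and 3. It was 81.8, 78.9 and 83.5 CPM in shAC007128.1 replicates 1, 2 and 3. The groups were far apart compared with the spread within each, and the rise was 1.53-fold. The log2 fold change, 0.61 ± 0.08 (standard error), had an edgeR adjusted p = 0.000761. It exceeded that of 81.6% of genes tested. Among the 5 members tested it shared the least sequence, with 0.265% of its 75-base windows found in another member.

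APOBEC3A (ENSG00000128383, chromosome 22 from 38952741 to 38963184), a potent deaminase that is inducible in keratinocytes and myeloid cells, was the member called higher, and its level was low. It had 51, 19 and 58 counts in shCtrl replicates 1, 2 and 3, or 0.697, 0.236 and 0.855 CPM. It had 90, 89 and 92 counts in shAC007128.1 replicates 1, 2 and 3, or 1.60, 1.62 and 1.58 CPM. The shAC007128.1 samples were nearly equal, while shCtrl replicate 2 was far below the other shCtrl samples. The log2 fold change, 1.43 ± 0.45 (standard error), had an edgeR adjusted p = 0.0375, and the rise was 2.69-fold.

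The call of APOBEC3A was not stable. Without shCtrl replicate 1 the edgeR adjusted p was 0.0762, and without shAC007128.1 replicates 1, 2 and 3 it was 0.0785, 0.0834 and 0.0789, while the log2 fold changes stayed between 1.42 and 1.56. Without the filter on low counts it was 0.0682. Without shCtrl replicate 2, the lowest sample, it was 1.04 on the log2 scale (edgeR adjusted p = 0.0347). The shared sequence also bears on this gene. If counts were even along APOBEC3B, 105 to 180 of its counts per sample would lie in 150-base windows that also occur in APOBEC3A, against 19 to 92 counts recorded for APOBEC3A itself. For 75-base windows the estimate was 338 to 580 counts, and for 50-base windows 430 to 737. How many reads were assigned to the wrong member was not tested.

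**Figure D3:**
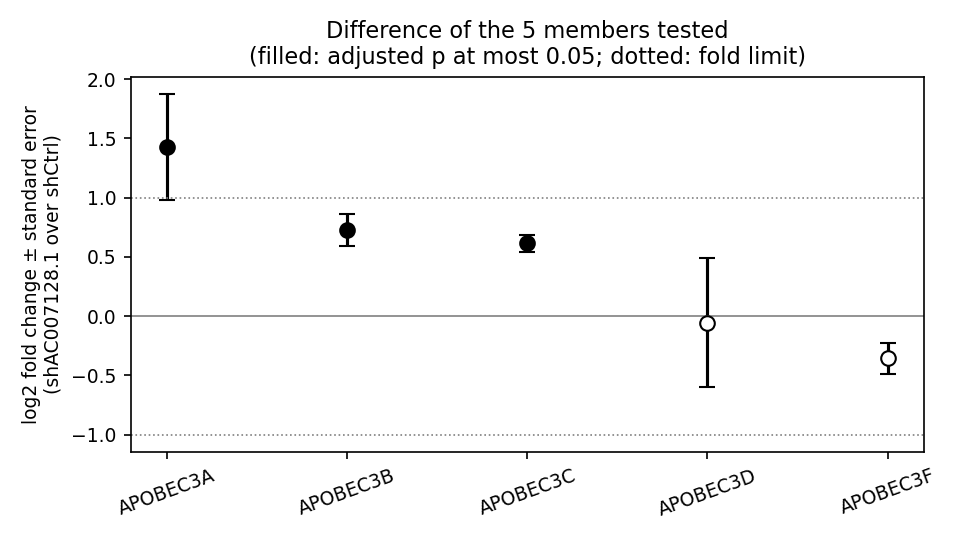
Log2 fold change of shAC007128.1 over shCtrl with its standard error for the 5 members tested, with filled points at an adjusted p of at most 0.05 and dotted lines at the fold limit. APOBEC3A (1.43), APOBEC3B (0.72) and APOBEC3C (0.61) lie above 0, and the open points of APOBEC3D (-0.06) and APOBEC3F (-0.36) at or below it.

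APOBEC3F (ENSG00000128394, chromosome 22 from 39040604 to 39055972), a restriction factor of retroviruses, lay on the other side. Its level was 15.5, 17.7 and 14.4 CPM in shCtrl replicates 1, 2 and 3, and 12.5, 13.5 and 11.2 CPM in shAC007128.1 replicates 1, 2 and 3. The groups did not overlap, but they came within 1 CPM of each other. The log2 fold change, -0.36 ± 0.13 (standard error), had an edgeR adjusted p = 0.0647, so it did not pass the threshold. It passed with DESeq2 (adjusted p = 0.0297) and with 3 other settings, always below the fold limit. A measure that needs no scaling is the ratio of counts within a sample, chosen here after the values were seen and given with no test. APOBEC3B had 2.705 to 3.13 counts for each APOBEC3F count in shCtrl and 5.35 to 7.48 in shAC007128.1 samples. For APOBEC3C the ratio was 3.18 to 3.601 in shCtrl and 5.86 to 7.46. The ratio of APOBEC3B to APOBEC3C counts was 0.852 to 0.911 in shCtrl and 0.792 to 1.14 in shAC007128.1 samples, with overlap.

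APOBEC3D (ENSG00000243811, chromosome 22 from 39021113 to 39033277), also a restriction factor, had 28, 35 and 20 counts in shCtrl replicates 1, 2 and 3. It had 28, 24 and 8 in shAC007128.1 replicates 1, 2 and 3. The groups overlapped, and the log2 fold change was -0.06 with a standard error of 0.55 (edgeR adjusted p = 0.944), so even a change near the fold limit could not have been resolved. Of its 2529 exonic bases, 2104 are also exons of ENSG00000284554, a gene model that runs from APOBEC3C into APOBEC3D, so its count is uncertain. That model had 18 to 23 counts in shCtrl and 8 to 16 in shAC007128.1 samples (log2 fold change -0.19, edgeR adjusted p = 0.796). Of the 150-base windows of the far more abundant APOBEC3B, 2.29% also occurred in APOBEC3D.

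APOBEC3G and APOBEC3H, which restrict retroviruses in lymphocytes, were close to the detection level and did not pass the filter. APOBEC3G (ENSG00000239713, chromosome 22 from 39077067 to 39087743) had 1, 1 and 5 counts in shCtrl and 5, 3 and 2 counts in shAC007128.1 samples. Of the 150-base windows of the more abundant APOBEC3F, 2.32% also occurred in APOBEC3G. APOBEC3H (ENSG00000100298, chromosome 22 from 39097224 to 39104067) had 6, 8 and 4 counts in shCtrl and 10, 5 and 16 in shAC007128.1 samples, and the groups overlapped. Without the filter, the edgeR adjusted p was 0.736 for APOBEC3G and 0.366 for APOBEC3H. A difference was not detectable at this depth.

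The genes around the cluster were described to show what the same stretch of chromosome did. Within 500 kb on either side the table held 51 further genes, of which 32 were tested. Of these, 3 were called lower and 0 higher by edgeR, with 2 higher and 14 lower at an unadjusted p under 0.05. DESeq2 and limma-voom also called 0 higher. By adjusted p alone 2 were higher and 11 lower, and the median log2 fold change was -0.39, against -0.02 over all genes tested. Of all genes tested, edgeR called 5.57% higher and 10.1% lower, and by adjusted p alone 21.0% were higher and 19.8% lower. The nearest tested genes before APOBEC3A were CBX6 at 80.5 kb, NPTXR at 109 kb and DNAL4 at 159 kb. CBX6, a Polycomb chromodomain protein, rose from 132 ± 2.15 to 243 ± 42.2 CPM (SD, n = 3; log2 fold change 0.89, edgeR adjusted p = 0.00140). NPTXR, a neuronal pentraxin receptor, fell from 42.4 ± 2.58 to 13.5 ± 2.04 CPM (log2 fold change -1.65, edgeR adjusted p = 0.000132). DNAL4, a dynein light chain, was at 16.2 ± 1.42 and 11.8 ± 1.81 CPM (log2 fold change -0.45, edgeR adjusted p = 0.0442). Its adjusted p was 0.0521 without the filter, and reached 0.143 without shCtrl replicate 1. It also missed the threshold without shCtrl replicate 2 or 3 or shAC007128.1 replicate 2 or 3. After APOBEC3H, CBX7, another Polycomb chromodomain protein, began 16.1 kb away. CBX7 fell from 34.8 ± 2.59 to 13.3 ± 2.49 CPM (log2 fold change -1.38, edgeR adjusted p = 0.000503). The pseudogene COX5BP7, which lies within the span of CBX7, had 54, 91 and 59 counts in shCtrl and 1, 3 and 1 in shAC007128.1 samples. The lncRNA ENSG00000279833, also within that span, had a log2 fold change of -0.14 (edgeR adjusted p = 0.694).

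**Figure D4:**
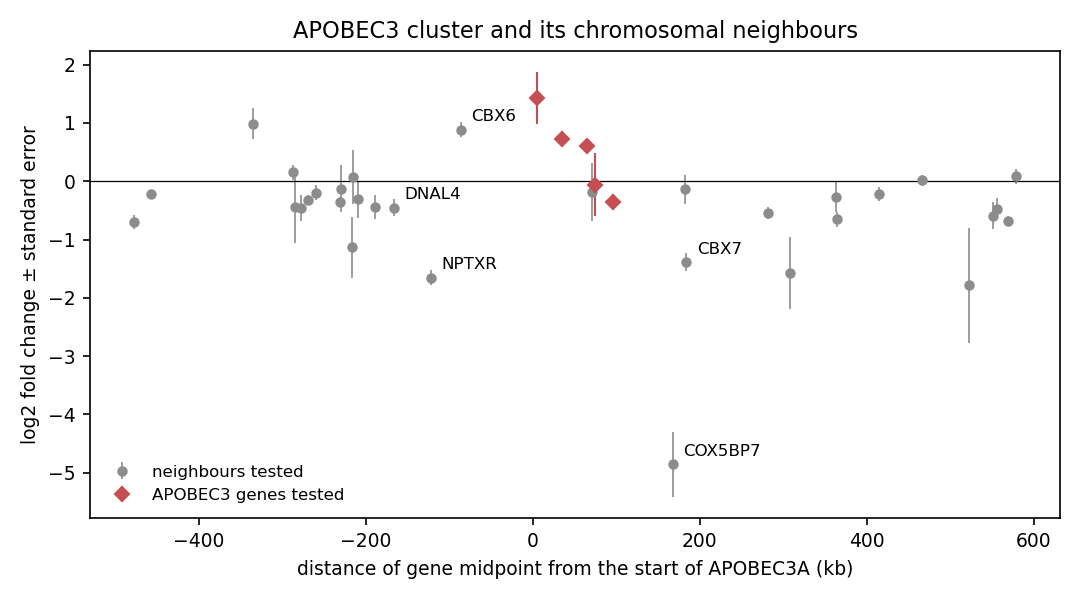
Log2 fold change with its standard error for the 5 APOBEC3 genes tested (red diamonds) and the 32 tested neighbours within 500 kb (gray), against the distance of each gene's midpoint from the start of APOBEC3A in kb. Most gray points lie below 0 (median -0.39), with CBX6 at 0.89 and CBX7 at -1.38 on either side of the cluster.

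Genes with known roles upstream of APOBEC3 transcription were then read from the same fit. In the list of DREAM, B-MYB and p53 regulators, all 16 genes were tested. Of these, edgeR called 5 higher (MYBL2, FOXM1, E2F1, RBBP4 and RB1) and 1 lower (CDKN1A), with a median log2 fold change of 0.48. DESeq2 called 5 higher and 2 lower, and limma-voom 4 higher and 2 lower. Without the fold limit, edgeR had 9 higher and 3 lower. Over all genes tested, edgeR called 5.57% higher and 10.1% lower, or 21.0% and 19.8% without the fold limit. MYBL2, which encodes B-MYB, rose from 38.5 ± 1.85 to 182 ± 16.0 CPM (SD, n = 3; log2 fold change 2.24, standard error 0.09, edgeR adjusted p = 1.6e-05). E2F1, an activator of S phase genes, rose by 1.87 on the log2 scale (edgeR adjusted p = 8.61e-05). CDKN1A, the p21 inhibitor of cell cycle kinases, fell from 141 ± 3.69 to 42.9 ± 4.64 CPM (log2 fold change -1.72, edgeR adjusted p = 3.83e-05). RB1, a repressor of E2F factors, rose as well, from 41.0 ± 5.82 to 82.7 ± 17.8 CPM (log2 fold change 1.01, edgeR adjusted p = 0.00342). RB1 was only just past the fold limit, with a standard error of 0.17.

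PKC and NF-kB regulators did not move one way. Of 18 genes 17 were tested, 1 was called lower and 0 higher by edgeR, DESeq2 and limma-voom alike, and 4 were higher and 6 lower at an unadjusted p under 0.05. By adjusted p alone, 3 were higher and 6 lower, with a median log2 fold change of -0.06. The edgeR shares over all genes tested were 5.57% called higher and 10.1% lower, and 21.0% and 19.8% by adjusted p alone. RELB, the subunit of non-canonical NF-kB signaling, was the one called in this list. It fell from 33.6 ± 1.49 to 15.0 ± 2.87 CPM (SD, n = 3; log2 fold change -1.17, edgeR adjusted p = 0.000973). RELA, the main canonical subunit, had a log2 fold change of -0.25 (edgeR adjusted p = 0.0328), which missed the threshold without shCtrl replicate 1, 2 or 3 (adjusted p 0.109, 0.109 and 0.0732) or shAC007128.1 replicate 2 (0.05999). The kinases PRKCD and PRKCH rose, with log2 fold changes of 0.79 (edgeR adjusted p = 0.000280) and 0.97 (edgeR adjusted p = 0.000434), while the kinase PRKCE fell by 0.67 (edgeR adjusted p = 0.00121).

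Of the 21 interferon pathway regulators 19 were tested, 1 was called higher and 0 lower by edgeR, DESeq2 and limma-voom alike. At an unadjusted p under 0.05, 8 were higher and 1 lower. Without the fold limit, 7 were higher and 1 lower, with a median log2 fold change of 0.06. Among all genes tested, 5.57% were called higher and 10.1% lower by edgeR, and 21.0% and 19.8% without the fold limit. IFNAR1, a subunit of the type I interferon receptor, rose from 29.8 ± 3.69 to 63.7 ± 11.2 CPM (SD, n = 3; log2 fold change 1.10, edgeR adjusted p = 0.00139). It was short of the fold limit without shCtrl replicate 3 (0.99) or shAC007128.1 replicate 3 (0.98). CGAS, the sensor of cytosolic DNA, rose by 0.74 on the log2 scale (edgeR adjusted p = 0.000574), and JAK2, a kinase bound to cytokine receptors, by 0.70 (edgeR adjusted p = 0.00506). STAT2, a transcription factor of the type I response, had a log2 fold change of 0.49 (edgeR adjusted p = 0.0169), which missed the threshold without shCtrl replicate 2 or 3 (adjusted p 0.0703 and 0.0591) or shAC007128.1 replicate 2 (0.0502). The interferon genes IFNB1 and IFNL1 did not pass the filter on low counts.

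Other restriction factors, many of them interferon-induced like the APOBEC3 genes, were split. Of 24 genes 22 were tested, with 1 called higher and 6 lower (HERC5, IFITM1, TRIM22, BST2, OAS1 and ISG20). Without the fold limit, 6 were higher and 9 lower, and the median log2 fold change was -0.52. The shares of all genes tested were 5.57% called higher and 10.1% lower, and 21.0% and 19.8% without the fold limit. HERC5, which attaches ISG15 to proteins, had 214, 230 and 166 counts in shCtrl and 5, 5 and 8 in shAC007128.1 samples (log2 fold change -4.67, edgeR adjusted p = 5e-05). IFITM1, which blocks viral entry and has close paralogs that can share its reads, had 183, 213 and 154 counts in shCtrl and 8, 5 and 3 in shAC007128.1 samples (log2 fold change -4.68, edgeR adjusted p = 0.000112). SERINC5, a membrane protein that lowers retroviral infectivity, rose from 42.8 ± 2.14 to 82.9 ± 2.89 CPM (log2 fold change 0.95, edgeR adjusted p = 0.000142). The list's median depended on its low genes and was 0.22 when at least 10 counts were required in every sample, which removed HERC5 and IFITM1 among others.

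**Figure D5:**
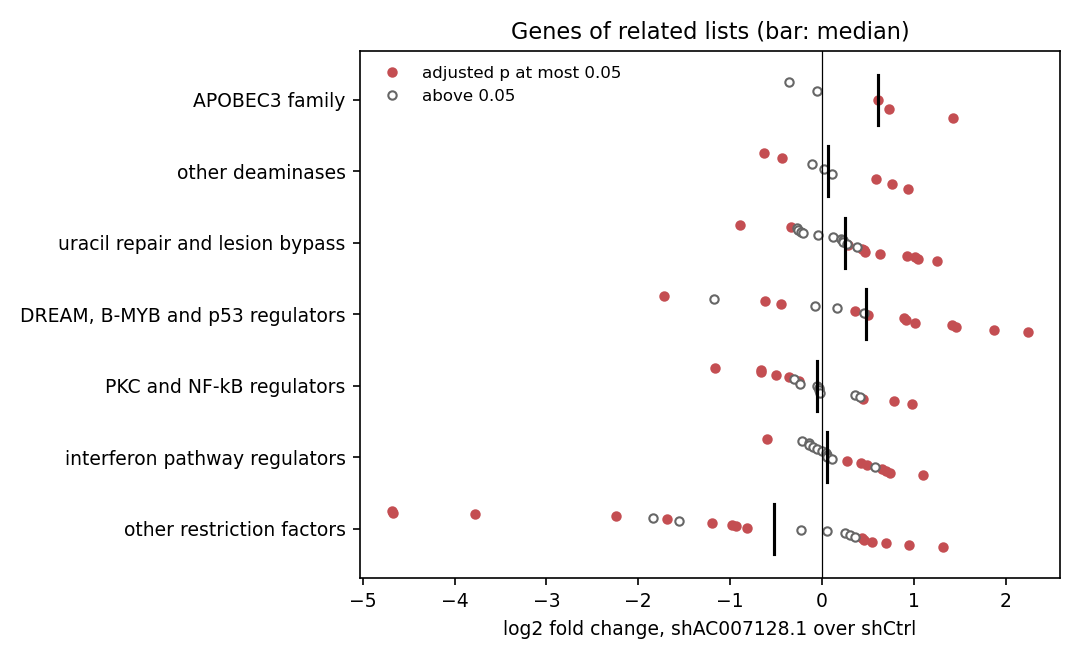
Log2 fold change of shAC007128.1 over shCtrl for each tested gene of the APOBEC3 family and 6 related lists, with red points at an adjusted p of at most 0.05 and a bar at each median. The medians run from -0.52 for other restriction factors to 0.61 for the 5 APOBEC3 genes tested, and every list but the APOBEC3 family has red points on both sides of 0.

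Downstream of the deaminases, uracil in DNA is removed by glycosylases, the abasic site left is cut, and the gap is filled and sealed. All 22 genes of uracil repair and lesion bypass were tested, and 3 were called higher (LIG1, FEN1 and DUT) and 0 lower by edgeR. DESeq2 called 3 higher and limma-voom 2, both with 0 lower, and 9 were higher and 3 lower at an unadjusted p under 0.05. By adjusted p alone 9 were higher and 2 lower, with a median log2 fold change of 0.25. For all genes tested, edgeR called 5.57% higher and 10.1% lower, and by adjusted p alone 21.0% were higher and 19.8% lower. LIG1, a DNA ligase, rose from 46.0 ± 1.17 to 110 ± 10.7 CPM (SD, n = 3; log2 fold change 1.25, edgeR adjusted p = 9.15e-05). FEN1, a flap endonuclease, rose by 1.05 on the log2 scale (edgeR adjusted p = 8.53e-05). DUT, which keeps dUTP out of DNA, rose by 1.01 (edgeR adjusted p = 0.00120). DUT lay so close to the fold limit that it fell short of it in 9 alternatives (0.91 to 0.996), among them limma-voom, the replicate block and the fits without shCtrl replicate 3 or shAC007128.1 replicate 1 or 2. FEN1 fell short with library size only (0.97) and without shAC007128.1 replicate 1 (0.9993). These 3 also serve DNA replication. UNG, the main uracil glycosylase, rose from 31.1 ± 8.80 to 59.0 ± 9.31 CPM (log2 fold change 0.92, edgeR adjusted p = 0.0149).

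Among 13 other deaminases, APOBEC1 and APOBEC4 had 0 counts in all 6 samples. By the floor of 3 counts, with its limits given above, this allows a level of up to 0.0373 to 0.0546 CPM depending on the sample. Of the 8 tested, 0 were called by edgeR, DESeq2 or limma-voom. By adjusted p alone 3 were higher and 2 lower, and likewise at an unadjusted p under 0.05. Of all genes tested, 5.57% were called higher and 10.1% lower by edgeR, and 21.0% and 19.8% by adjusted p alone. ADAR, which edits adenosine in double-stranded RNA, rose from 207 ± 5.80 to 312 ± 33.8 CPM (SD, n = 3; log2 fold change 0.59, edgeR adjusted p = 0.00182). The tRNA adenosine deaminase subunits ADAT2 and ADAT3 had log2 fold changes of -0.64 (edgeR adjusted p = 0.00154) and 0.76 (edgeR adjusted p = 0.00350).

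The genes whose pattern over the 6 samples came closest to that of each member with a mean of at least 1 CPM were sought among 11827 protein-coding genes. Likeness was the root mean square difference in log2 CPM after each gene was centred on its own shCtrl mean. For APOBEC3B the closest were RPTOR (0.0444), CSF1 (0.0613) and GTF3C5 (0.0628). For APOBEC3C they included HIP1 (0.0316) and NCL (0.0342), and for APOBEC3F they were ELOVL1 (0.0363), BCL9 (0.0476) and INO80C (0.04996). APOBEC3A had no such close match, and its nearest were ALG10B (0.1701), FANK1 (0.251) and RAPGEF6 (0.253). It had only 19 to 92 counts per sample, and the part of counting noise in these distances was not tested. No APOBEC3 gene was among the 3 closest to another. With only 3 places among 11827 genes, this does not show whether the members vary together.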

How the data were processed

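RNA-seq was made from poly-A RNA of 3 shCtrl and 3 shAC007128.1 samples as paired-end TruSeq libraries. Per the methods, reads were filtered and mapped to hg38 with TopHat, and Cufflinks gave FPKM values that were not used here. The submitters' processing notes list CASAVA 1.8, TopHat2 and the builds GRCh38 and mm10. The deposited values are estimated counts per gene, which the authors did not normalize. The counting program, annotation and use of strand are not given in the sources used here. Low values pile up at 4 counts (1238 to 1380 genes per sample, against 675 to 815 at 3), so counts divided by 4 were an alternative.

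Columns were mapped by titles and descriptions. Positions and exon lengths come from GENCODE v44 (hg38), which held 60357 of 67140 identifiers. Genes were filtered with filterByExpr (19254 kept), scaled by TMM and tested with edgeR (glmQLFit, glmQLFTest), adjusted by Benjamini-Hochberg over all genes tested. The standard error is the log2 fold change over the root of F. Same-numbered samples deviated with correlations of 0.0306, -0.0254 and -0.0299. No pair of replicates agreed within sampling noise (chi-square per gene 36.9 to 102). On simulated counts with 200 changed genes, edgeR passed 73.2% of 4-fold, 46.5% of 2-fold and 11.0% of 1.5-fold changes by adjusted p alone, and 8 of 18453 unchanged genes. Changed genes lost to the filter counted as not passed. In the data far more genes passed by adjusted p alone (4041 higher and 3820 lower), which makes the adjustment less strict. The simulated shares therefore do not give the power of the fit used here.

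Members and lists were chosen with earlier results of these data known. Named genes are the 7 members, AC007128.1, the 3 smallest p in each related list, UNG, MYBL2, RELA, RELB and STAT2, the 3 nearest tested neighbours on each side, genes overlapping a member, and the 3 genes most like each member by the rule given above. Other genes named were chosen after their values were seen, and some genes that the rule or a list holds are not reported here. Alternatives were other tools (DESeq2 and limma-voom), other scalings (the size factors of DESeq2, or plain library totals), other filters (none, or 10 counts or more in all samples), a replicate block, counts divided by 4, each sample left out, no fold limit, and the longest transcript as length. Tools were R 4.3.3, edgeR 4.0.16, limma 3.58.1 and DESeq2 1.42.0.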

Additional observations from a re-analysis of the deposited data

How the results depend on the processing

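APOBEC3B and APOBEC3C kept their direction and stayed past the threshold in every alternative run. APOBEC3A stayed higher throughout but missed it without the filter (log2 fold change 1.39) and in 4 of the 6 fits that left out a sample (1.04 to 1.78 over those 6). APOBEC3F passed with DESeq2 (-0.37), library size only (-0.43), at least 10 counts in every sample (-0.39) and counts divided by 4 (-0.38). APOBEC3D changed sign without shCtrl replicate 2 (0.07) or shAC007128.1 replicate 3 (0.32), over a range from -0.38, and ENSG00000279833 without shCtrl replicate 3 (from -0.33 to 0.070 over the samples left out). Calls without the fold limit were 4041 higher and 3820 lower, against 1073 and 1945 with it.

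Medians that moved by more than the spread between replicates were as follows. With library size only, which shifts the median of all genes to -0.10, they were 0.41 for DREAM, B-MYB and p53 regulators, -0.018 for interferon pathway regulators and -0.60 for other restriction factors. With no filter, which shifts it to -0.15, they were -0.090 for other deaminases, -0.57 for other restriction factors and -0.50 for neighbours. The median of other restriction factors was 0.22 when all samples needed 10 counts and -0.10 after division of counts by 4. With a sample left out, medians ranged from -0.17 to -0.056 for PKC and NF-kB regulators, from 0.019 to 0.18 for interferon pathway regulators, from -0.89 to -0.52 for other restriction factors and from -0.49 to -0.34 for neighbours.

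The APOBEC3B level per kb was 71.8, 214 and 55.9 times that of APOBEC3A in shCtrl replicates 1, 2 and 3 (mean 114, and 63.9 without replicate 2). In shAC007128.1 samples it was 44.3 to 61.8 times (mean 51.1, and 38.6 by the longest transcript). A block on replicate number gave 977 genes called higher and 1692 lower, where the log2 fold changes were 1.57 for APOBEC3A, 0.71 for APOBEC3B and -0.36 for APOBEC3F, with no call changed among members. RELA (adjusted p 0.0675) and DNAL4 (0.0566) missed the threshold under this block. The numbers did not pair the samples, and 1 of 3 shCtrl samples correlated best with its own number. Depth limits APOBEC3A, APOBEC3D, APOBEC3G and APOBEC3H, with at most 92 counts in a sample. The cause of these changes was not tested.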
